A study of Drosophila melanogaster with 2 samples.

Results

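The small-subunit cytoplasmic ribosomal protein genes of Drosophila melanogaster were taken as all genes of the Ensembl annotation whose symbol begins with RpS and a digit, on the arms 2L, 2R, 3L and 3R, on chromosome 4 and on X. The rule gave 38 of 17896 annotated genes, and it used no measured value. Binding was measured by chromatin immunoprecipitation and sequencing in whole embryos of 0 to 12 h from a transgenic line that expresses CG2202 with a GFP tag at its C terminus, with an antibody against GFP. Both samples belong to 1 group and are labelled as biological replicates 1 and 2 of the same line. Whole embryos mix many cell types, so a weak peak in many nuclei and a strong one in few cannot be told apart. There is no second condition, a control group was not analysed here, and the sequencing depth is unknown.

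Cytoplasmic ribosomes are built from a small (40S) and a large (60S) subunit. The 40S subunit binds mRNA and holds the decoding centre where codons are read. Its proteins, named RpS in the fly, are encoded by genes scattered over the genome. Most are needed in every cell, and loss of a single copy of many of them gives the Minute phenotype of short bristles and slow development. In animals many ribosomal protein genes start transcription at a polypyrimidine initiator, also called TCT, in place of the usual initiator.

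IDR peaks (irreproducible discovery rate) are those of a list that the authors made from the pooled list and both replicate lists. An IDR peak had its summit within 500 bp of a transcription start site (TSS) of 26 of the 38 RpS genes, 68.4%. Over all annotated genes the share was 12.1%. It was 14.1% over protein-coding genes and 24.9% over genes with any pooled summit in that window. Of the genes for large-subunit proteins (RpL) 41 of 54 had such a summit, 75.9%, and of those for proteins of the mitochondrial small subunit (mRpS) 5 of 26, 19.2%. Most of the 26 RpS summits lay close to the TSS, with a median position of 4.5 bp downstream, whereas over the 2143 other genes with an IDR summit the median was -128 bp, which is upstream. In each of 6 families of paralogues exactly 1 member was in the IDR list. The start sites of the 5 RpS genes of highest signal are shown because they carry the summits described next. Each line runs 5′ to 3′ on the gene's strand, from 15 bases before the TSS nearest the pooled summit to 15 bases from the TSS on. Capitals mark the word TCTTT or CCTTT where its second base lies within 10 bp of that TSS; RpS10b has such a word 9 bp from another of its start sites and RpS20 has none. The sequences were read from the RefSeq Release 6 assembly, which has dm6 coordinates, at chr3R:25247458-25247487 (minus strand) for RpS27, chr3L:13041786-13041815 (plus) for RpS4, chr3R:11216273-11216302 (minus) for RpS25, chrX:19598016-19598045 (plus) for RpS10b and chr3R:20822166-20822195 (plus) for RpS20.
RpS27: ctgcgatttaccccacttCCTTTtccgtgt
RpS4: caccgcccgcaaatctgCCTTTtccttttc
RpS25: ggccgtttccgccctccaTCTTTctgcatt
RpS10b: caccgtcttcttcttgtcatcccttccgtt
RpS20: gacaccctgtaaaacttctcttcgttttca

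The signal of a peak is the authors' own value, set by their caller, and rank 1 is the peak of highest signal in a list. Signals were compared only within a list. The pooled list and each replicate list hold 30000 peaks, and the 3571 IDR peaks are the 3571 pooled peaks of highest signal. RpS27 (FBgn0039300), a zinc-binding protein of the 40S subunit, had the highest signal of the family. Its peak at 3R 25247321 to 25247685 had a signal of 616 in the pooled list (rank 159), 413 in replicate 1 (rank 65) and 203 in replicate 2 (rank 543). The summit lay 5 bp upstream of the TSS shown in the pooled list and 4 bp upstream of it in replicate 1. In replicate 2 it lay 29 bp from that of replicate 1, and 9 bp downstream of the other annotated TSS of the gene, which is the more upstream of the pair.

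RpS4 (FBgn0011284) followed. Its pooled signal was 462 (rank 334), with 316 in replicate 1 (rank 133) and 153 in replicate 2 (rank 942), and the summit was 10 bp downstream of the TSS in the pooled and replicate 1 lists and 26 bp downstream in replicate 2. RpS25 (FBgn0086472), which is known from yeast and human cells for its part in initiation at internal ribosome entry sites, had a pooled signal of 364 (rank 554), with 229.7 in replicate 1 (rank 325) and 150.0 in replicate 2 (rank 968). Unlike those of RpS27 and RpS4, its summit lay upstream of the gene, 71 bp before the TSS in the pooled and replicate 1 lists and 96 bp before it in replicate 2. RpS10b (FBgn0285947) had a pooled signal of 357 (rank 587), with 256 in replicate 1 (rank 259) and 118 in replicate 2 (rank 1474). RpS20 (FBgn0019936), a protein of the 40S head, had 312 (rank 745), with 183 in replicate 1 (rank 521) and 123 in replicate 2 (rank 1385).

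RpS20 had the most distant upstream summit of the bound family members, 125 bp before the TSS, in an interval that ends before the start site. RpS20 was the only one of the 26 whose IDR peak interval covered no annotated TSS of its gene. A second, weaker pooled summit of RpS20 lay 77 bp downstream of the TSS, with a signal of 103 (rank 4652).

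Of the next 5 by IDR signal, 4 are given here, and they were close together in the pooled list. RpS7 (FBgn0039757) had a pooled signal of 291 (rank 865), RpS16 (FBgn0034743), whose C-terminal tail reaches the tRNA in the P site, 269.8 (rank 997), RpS18 (FBgn0010411) 261 (rank 1071) and RpS12 (FBgn0286213), known in the fly for its part in cell competition, 248 (rank 1172). In replicate 1 these 4 had signals of 158 for RpS7 (rank 712), 173 for RpS16 (rank 579), 166 for RpS18 (rank 641) and 163 for RpS12 (rank 666). In replicate 2 they had 134 for RpS7 (rank 1208), 103 for RpS16 (rank 1821), 99.8 for RpS18 (rank 1909) and 90.5 for RpS12 (rank 2218). The 10 genes of highest signal thus ranked higher in replicate 1 than in replicate 2, without exception.

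Signals of the remaining 16 bound RpS genes ran from 127 (RpS9, rank 3319) to 238 (RpS28b, rank 1251) in the pooled list. RpS27A, made as a fusion with ubiquitin, had 212, RpS15Aa 199 and RpS3A, the only member on arm 4, 193. RpS29, a zinc-binding protein, RpS21, RpS19a and RpS2 lay between 181 and 185. RpS23, a protein of the decoding centre, had 163, RpS15 156, RpS14a 149, RpS6, the substrate of S6 kinase, 134 and RpS30, made as a fusion with a ubiquitin-like protein, 128. Over all 26 the median IDR rank was 1750, close to the middle of the list, and the median signal was 196, against 292 (median rank 859) over 41 RpL genes and 199 (median rank 1714) over the 2143 genes other than RpS. Among the 1000 IDR peaks of highest signal, 7 of the 38 RpS genes had a summit, where the share over all genes was 3.79%. The share of RpS genes in the whole IDR list was above that over all genes, while the median signal of those listed was near that of other listed genes. These are descriptions of the lists, with no test. By arm, 3 of 6 RpS genes were in the IDR list on 2L, 4 of 7 on 2R, 4 of 4 on 3L, 7 of 12 on 3R, 1 of 1 on 4 and 7 of 8 on X. The share over all genes of each arm was not computed, so no difference between arms can be read from these small counts.

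**Figure D1:**
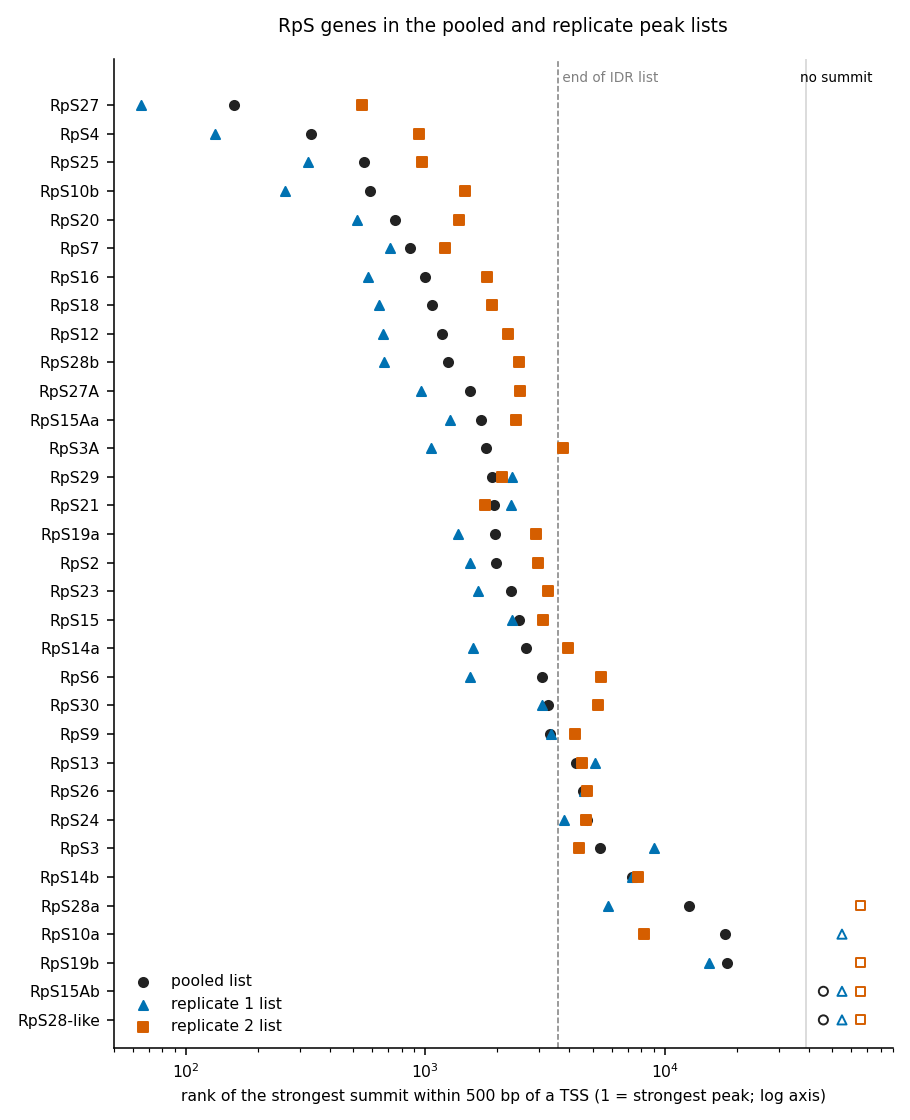
Rank of the strongest summit within 500 bp of a TSS for 33 RpS genes in the pooled, replicate 1 and replicate 2 lists, on a log axis with rank 1 as the strongest peak; open symbols mark lists with no summit there and the dashed line marks rank 3571, where the IDR list ends. The 23 genes above RpS13 lie left of the line in the pooled list, and RpS15Ab and RpS28-like have no summit in any list.

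The 26 genes, chosen by a list made from both replicates, had a summit in both replicate lists. So had 2140 of the 2169 genes of all kinds with an IDR summit. Of all 38 RpS genes 32 had a summit in both, as had 6930 of the 17896 annotated genes. In replicate 1 the signals of the 26 RpS genes ran from 65.1 to 413 with a median of 122, and their ranks from 65 to 3354 with a median of 1165.5. In replicate 2 signals ran from 50.2 to 203 with a median of 90.0, and ranks from 543 to 5446 with a median of 2230. Thus 22 of the 26 RpS genes ranked higher in replicate 1, 84.6%, as did 38 of the 41 RpL genes in the IDR list, 92.7%. Over 2140 genes of all kinds with an IDR summit and a summit in both lists, 35.4% ranked higher in replicate 1. RpS29 and RpS21 were among the 4 RpS genes that ranked higher in replicate 2.

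With only the 3571 peaks of highest signal kept per replicate, replicate 1 placed a summit at 26 RpS genes, the same 26, where the share over all genes was 10.9%. Replicate 2 placed one at 21, where the share over all genes was 13.4%. The 5 it left out were RpS14a, RpS30, RpS3A, RpS6 and RpS9, whose ranks there ran from 3751 (RpS3A) to 5446 (RpS6). Spearman's rank correlation between the replicate signals was 0.644 across the 26 genes, 0.745 across the 41 RpL genes and 0.503 across the 2140 genes. These values are across genes of the same 2 libraries, not across samples. The libraries also differed in the GC content within 50 bp of the strongest promoter summit. Over RpS genes its median was 44.6% in replicate 1 (34 genes) and 44.6% in replicate 2 (34 genes, 32 of them shared), while over all genes it was 42.6% in replicate 1 and 36.6% in replicate 2. A relation of GC content to the ranks was not tested.

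The 5 RpS genes whose rank percentiles (100 for the strongest peak of a list) differed most between replicates were RpS3, RpS6, RpS3A, RpS14a and RpS30. RpS3, which lies at the mRNA entry site, was the one of them that stood higher in replicate 2. Its signal was 35.5 in replicate 1 (rank 9046) and 57.8 in replicate 2 (rank 4385), a difference of -15.5 percentile points. RpS6 went the other way by 13.0 points, with 103 in replicate 1 (rank 1538) and 50.2 in replicate 2 (rank 5446). The differences of RpS3A, RpS14a and RpS30 were 8.97, 7.96 and 7.35 points, each higher in replicate 1.

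Most summits of RpS genes lay near the start site. In the IDR list the 26 positions ran from 125 bp upstream (RpS20) to 117 bp downstream (RpS6), with quartiles of -23.25 and 16 bp. Of them 19, or 73.1%, lay within 50 bp of a TSS of the gene, 3 (RpS20 and RpS25 among them) further upstream and 4 (RpS9, RpS2, RpS15 and RpS6) further downstream. Of RpL genes 28 of 41 lay within 50 bp (68.3%), 10 further upstream and 3 further downstream, and the median was -18 bp. Over the 2143 genes other than RpS, 14.6% lay within 50 bp and 73.2% further upstream. The 5 mRpS genes in the IDR list all had summits more than 50 bp upstream, with a median of -150 bp.

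**Figure D2:**
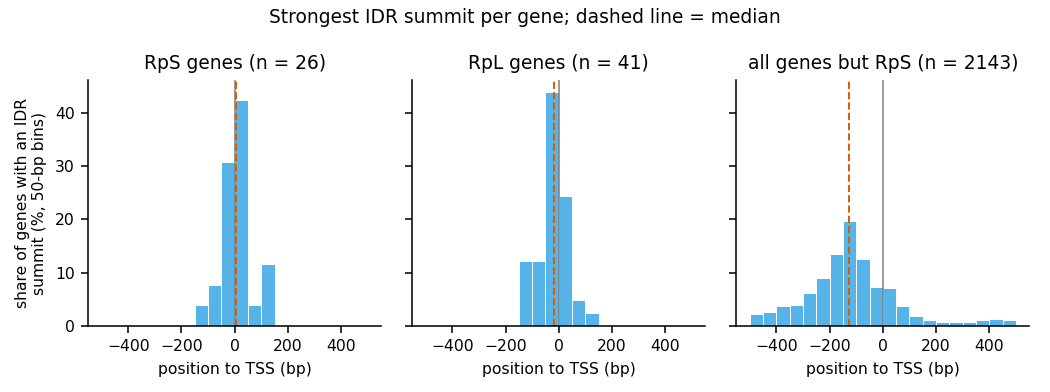
Position of the strongest IDR summit relative to the nearest TSS of its gene, in bins of 50 bp, as a share of the genes with an IDR summit, for 26 RpS genes, 41 RpL genes and 2143 genes other than RpS; the dashed line is the median. RpS summits centre on the TSS (median 4.5 bp), those of other genes upstream of it (median -128 bp).

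The position depended on which start sites were counted, since 19 of the 38 RpS genes have 1 annotated TSS and the rest up to 4. With the most upstream TSS of each gene alone, the median moved to 40.5 bp downstream. By annotation, 17 of the 26 summits fell in an annotated 5′ UTR exon, 7 upstream of the gene and 2 (RpS9 among them) in an intron. These features were not counted for other genes. Between replicates, the strongest summit of the same RpS gene differed by a median of 33 bp, and 17 of 26 differed by 50 bp or less. Values were similar over 2140 genes of all kinds with an IDR summit, with a median of 38 bp and 1284 within 50 bp. Over 41 RpL genes the median was 26 bp, with 30 within 50 bp. The largest gap of the 26 RpS genes, 250 bp, was that of RpS14a, with a summit at the TSS base in replicate 1 and 250 bp upstream of it in replicate 2. Replicate 2 also had a weaker RpS14a summit of signal 50.7 (rank 5358) 24 bp upstream of the TSS, at the base of the pooled summit. The peaks are wider than these gaps of RpS genes, with median widths of 404 bp in replicate 1 and 370 bp in replicate 2.

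**Figure D3:**
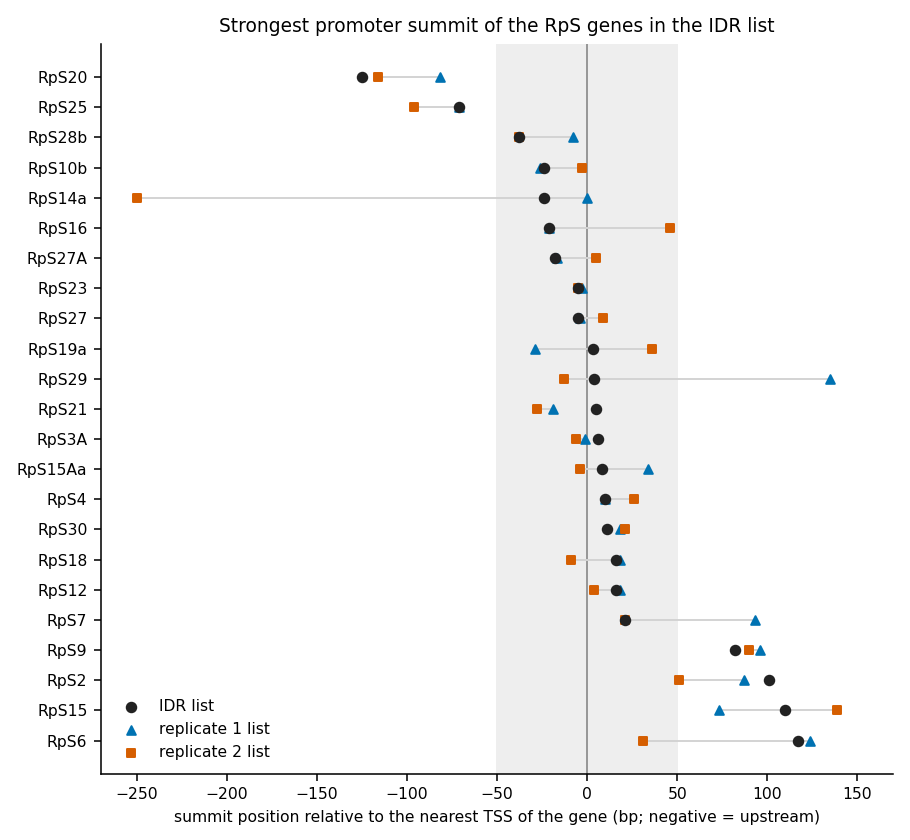
Position of the strongest promoter summit of 23 RpS genes in the IDR list (circles), the replicate 1 list (triangles) and the replicate 2 list (squares), in bp from the TSS of the gene nearest that summit; the shaded band is 50 bp on either side. RpS14a and RpS29 show wide spreads between lists, and 17 of these 23 IDR summits are in the band.

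GC content within 50 bp of the summit had a median of 44.6% over the 26 RpS genes, from 30.7% (RpS6) to 59.4%, and of 44.6% over 41 RpL genes. Over the 2143 genes other than RpS the median was 31.7%, and over the 5 mRpS genes 26.7%. Summit position differed between these groups as well, so base composition and position cannot be told apart here.

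Paralogues split within every family. The 6 families, RpS10, RpS14, RpS15A, RpS19 and RpS28 among them, hold 13 genes in all, of which 6 were in the IDR list and 7 were not. Outside these families the counts were 20 of 25. Several of the genes not in the list, among them RpS10a and RpS19b, are known for expression in the germline, while their partners are expressed widely. A relation of expression to the peaks was not tested. Start sites are shown in the layout used above, to set copies in the IDR list and copies not in it side by side.
RpS10a: gaagtttcggtaaatactaatttaagctgg
RpS14a: ttgacagctacgtcaacctTCTTTtttgat
RpS14b: cagctgtgttgtttttgcctTCTTTttttc
RpS19a: ccaacttcacgcgccttgtTCTTTtttccg
RpS19b: acttgccaatcgtccattttgactaaagtc
RpS28b: ctgtgccgataaccgctcaacttCCTTTtt
RpS28a: gcagcactcacagcttcaaattcaaatctt
RpS28-like: tgtcatttgatattgtaagttacatacccc

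These stretches lie, in dm6 coordinates, at chr3R:27652745-27652774 (plus strand) for RpS10a, chrX:7933727-7933756 (plus) for RpS14a and chrX:7934883-7934912 (plus) for RpS14b. Those of RpS19a and RpS19b lie at chrX:16637879-16637908 (plus) and chr3R:23933516-23933545 (minus). The RpS28 copies lie at chrX:9554608-9554637 (plus) for RpS28b, chr3R:30022634-30022663 (minus) for RpS28a and chr2L:9436789-9436818 (plus) for RpS28-like. RpS14a and RpS14b both carry the marked word downstream of the TSS shown, although only RpS14a is in the IDR list. RpS10a, RpS19b, RpS28a and RpS28-like have no such word within 10 bp.

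RpS10b had a pooled signal of 357, and RpS10a (FBgn0027494) had 39.2 at rank 17818 (q = 0.147), with a summit 164 bp upstream. Replicate 1 listed none at RpS10a. Replicate 2 listed a summit of signal 38.1 (rank 8189) 304 bp upstream and a weaker one of signal 28.1 (rank 12780) 103 bp upstream. These proteins were 73.6% identical. RpS19a, whose human counterpart is needed for maturation of the 40S subunit, had 181. RpS19b (FBgn0039129) had 38.5 at rank 18196 (q = 0.159), from a summit 401 bp downstream of its TSS. Replicate 1 listed a summit of signal 25.6 (rank 15299) 103 bp downstream and a weaker one of signal 22.4 (rank 18991) 375 bp downstream. Replicate 2 listed none at RpS19b. The pair was 65.4% identical. In these 2 families the second copy ranked in the weaker part of the pooled list, whose lowest signal was 26.4, at percentiles of 40.6 for RpS10a and 39.4 for RpS19b, and its summit did not lie at the start site.

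RpS28b had a pooled signal of 238. RpS28a (FBgn0039739), 81.5% identical to it in protein, had 49.7 at rank 12697 (q = 0.0415) from a summit 58 bp upstream of its TSS and 136 bp upstream of that of Axn, the gene of the Wnt pathway scaffold Axin, and 485 bp upstream of that of Mgat2. Replicate 1 listed a summit of signal 46.4 at RpS28a (rank 5822), and replicate 2 none. RpS28-like (FBgn0085211), whose protein was 38.2% identical to that of RpS28b, had no summit within 500 bp in any list, and the nearest pooled summit was 548 bp away. RpS15Aa had 199, while RpS15Ab (FBgn0033555), with a protein 97.7% identical, had no summit within 500 bp in any list and the nearest pooled summit was 1105 bp away.

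RpS14a and RpS14b are tandem copies on X with identical proteins of 151 residues and start sites 1156 bp apart. RpS14a had a pooled signal of 149 (rank 2629), with 102 in replicate 1 (rank 1578) and 61.6 in replicate 2 (rank 3965). RpS14b (FBgn0004404) had 75.0 (rank 7272, q = 0.00103), with 40.3 in replicate 1 (rank 7331) and 39.5 in replicate 2 (rank 7765), and its summit lay 36 bp upstream of the TSS. This was the unlisted copy with the highest signal, and unlike RpS10a and RpS19b it had a summit within 50 bp of the start site in the pooled, replicate 1 and replicate 2 lists. Reads from such copies can be hard to place. Of the 36-base words in the promoter windows, 16.1% for RpS14a, 25.4% for RpS14b and 19.6% for RpS15Ab also occurred elsewhere on the 6 arms, and 0 for the other 35 RpS genes. How the authors' alignment treated such reads was not given in the sources used here, and its part in these 3 values was not tested.

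**Figure D4:**
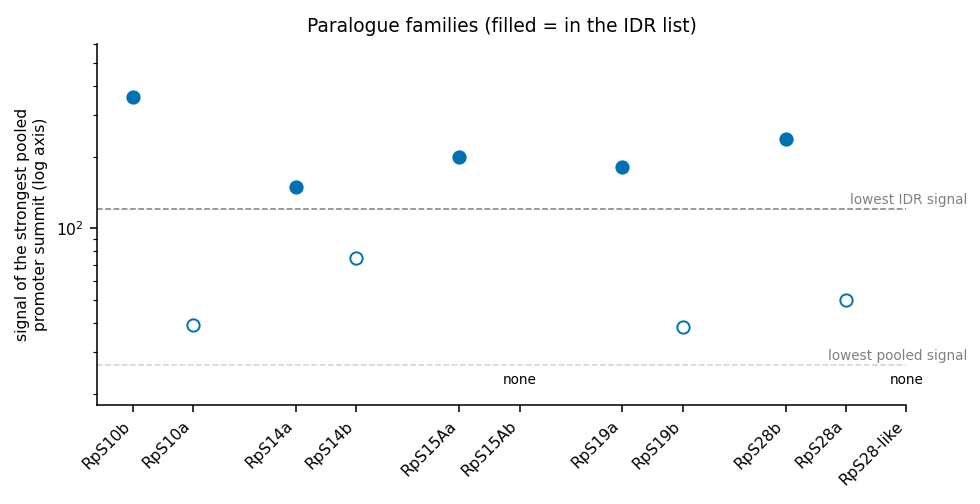
Signal of the strongest pooled summit within 500 bp of a TSS for 11 members of 5 paralogue families, on a log axis; filled points are in the IDR list, open points are not, and none marks genes with no summit. Each family has 1 filled point, from 149 (RpS14a) to 357 (RpS10b), and the open points lie between 38.5 and 75.0.

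Outside the paralogue families 5 RpS genes had no IDR summit, and all 5 had promoter peaks in each of the pooled, replicate 1 and replicate 2 lists. In the pooled list RpS13 (FBgn0010265) had a signal of 108 (rank 4254), RpS26 (FBgn0261597), at the mRNA exit channel, 103 (rank 4580), RpS24 (FBgn0261596) 101 (rank 4725) and RpS3 (FBgn0002622) 93.2 (rank 5354). RpS26 had 53.5 in replicate 1 and 54.8 in replicate 2, RpS24 59.7 and 55.2, and RpS13 50.1 and 56.7, in the same order of replicates. These 3 genes thus ranked between 3814 and 5118 in either replicate, past the 3571 peaks of highest signal. The lowest IDR signal was 120.9, and the RpS genes just above it were RpS9 at 127 and RpS30 at 128. The pooled q-values of RpS13, RpS26, RpS24 and RpS3 were 7.66e-05, the lowest of that list. With a pooled q-value below 0.05 as the rule, 33 of 38 RpS genes had a promoter summit, where the share over all genes was 34.9%. The 7 added were these 5, RpS14b and RpS28a. With any pooled summit the count was 36, where the share over all genes was 48.7%. Only RpS15Ab and RpS28-like had no promoter peak in any list.

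At RpS26, RpS13 and RpS24, 1 replicate list held a second, weaker summit that lay nearer to the strongest of the other replicate. At RpS24 this was a replicate 1 summit of signal 25.7 lying 77 bp upstream. The strongest RpS24 summit of replicate 1, of signal 59.7, lay 122 bp downstream, and that of replicate 2 lay 133 bp upstream. RpS3 had 1 summit in each of the pooled, replicate 1 and replicate 2 lists. RpS26 and RpS24 had pooled summits 26 and 3 bp downstream of the TSS and RpS3 one 18 bp upstream, but RpS13 had one 107 bp upstream. The strongest summits of the replicates were 245, 249 and 255 bp apart for RpS13, RpS26 and RpS24 and 77 bp for RpS3. At RpS26, replicate 2 had summits of signal 54.8 and 54.4, 199 and 13 bp upstream of a TSS, and that of replicate 1 lay 1 bp downstream, near the weaker of the pair. At RpS13, replicate 1 had a weaker summit of signal 41.6 lying 137 bp upstream, near that of replicate 2 at 149 bp upstream. The pooled summit of RpS13 also lay 86 bp upstream of a TSS of CSN8, which encodes a subunit of the COP9 signalosome.

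Neighbouring or overlapping genes shared part of the peaks. The strongest IDR summit of 13 of the 26 RpS genes, 50%, was also within 500 bp of a TSS of another gene, as it was for 58.6% of the 2143 other genes with an IDR summit. The count of 13 depended on the window: it was 6 of 26 within 250 bp, 24 of 28 within 1000 bp and 3 of 25 when the peak interval had to cover both start sites. A shared summit counts for both genes, and a peak list cannot say which of them it belongs to. The other gene was protein-coding for 10 of the 13. In 9 of these 10 the summit was nearer to the RpS gene. RpS27 shared its summit with Nup37, a nuclear pore gene whose TSS was 181 bp away, and with a noncoding RNA. RpS25 shared one with CG4820 (177 bp), RpS20 with CG17271 (208 bp), RpS21 with CG3104 (297 bp) and RpS18 with plu (311 bp), which regulates DNA replication in the early embryo. The summits of RpS14a and RpS16 were 367 bp from a TSS of Dhdds and 439 bp from one of CG4294.

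RpS27A was the exception, with its summit 18 bp upstream of its own TSS and 18 bp upstream of that of Ip259. The 3 remaining shared summits were with small nucleolar RNA genes, at RpS12 (212 bp), RpS29 (297 bp) and RpS6. At RpS6 the summit lay 117 bp downstream of the RpS6 TSS. It lay 11 bp upstream of the annotated start of the snoRNA gene Or-aca2, which starts within RpS6. The annotated start of a noncoding RNA gene was counted as a TSS, and whether transcription begins there was not tested. RpS23 was the only RpS gene with more than 1 IDR summit, the second of them 430 bp upstream with a signal of 142. In the pooled list 15 RpS genes had more than 1 promoter summit. The share over all genes was not computed for this count, so it describes the RpS genes only.

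The word TCTTT or CCTTT, on the strand of the gene and with its second base within 5 bp of an annotated TSS, was found at 25 of 38 RpS genes (65.8%), 31 of 54 RpL genes (57.4%), 0 of 26 mRpS genes and 3.31% of 13945 protein-coding genes. Both words share their last 4 letters and were searched on that strand alone. Within 10 bp the counts were 29 of 38 RpS genes (76.3%) and 46 of 54 RpL genes (85.2%), and 6.35% of protein-coding genes. At 25 of these 29 RpS genes the nearest such word lay downstream of the annotated TSS, with its second base 2 to 9 bp from it. Among RpS genes the word was found within 5 bp at 19 of the 26 in the IDR list and at 6 of the 12 not in it, and within 10 bp at 23 of the 26 and 6 of the 12. Of protein-coding genes with an IDR summit, 6.06% had the word within 5 bp. With only the most upstream TSS of each gene searched, the word was found within 5 bp at 12 of 38 RpS genes (31.6%), 18 of 54 RpL genes (33.3%) and 2.19% of protein-coding genes, so the count depended on which start sites were searched. Bound RpS genes without the word within 10 bp were RpS12, RpS2 and RpS20, and RpS14b, RpS3, RpS13, RpS24 and RpS26 were among the 6 that had it without an IDR summit.

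**Figure D5:**
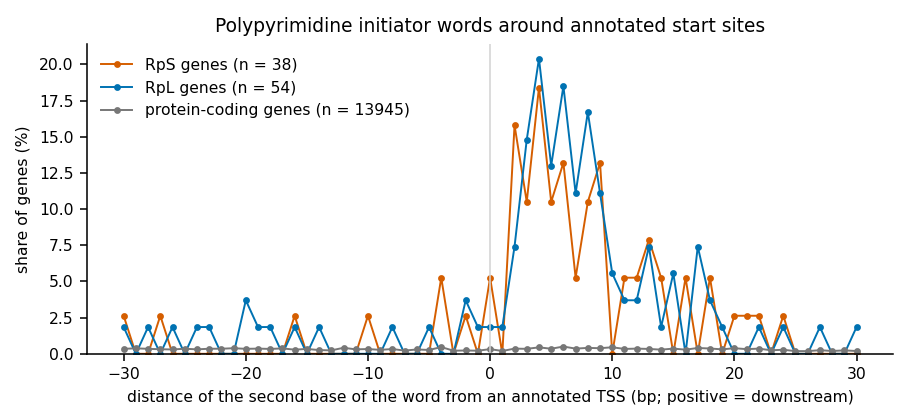
Share of genes with a polypyrimidine initiator word whose second base lies at each distance from an annotated TSS, for 38 RpS genes, 54 RpL genes and 13945 protein-coding genes. RpS genes reach 18.4% and RpL genes 20.4% at 4 bp downstream, where protein-coding genes stand at 0.445%.

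Other promoter words were searched from 250 bp before to 50 bp after each TSS on both strands. The core of the DNA replication-related element, TATCGATA, was found at 13 of 38 RpS genes (34.2%) against 10.2% of protein-coding genes. It was also found at 15 of 54 RpL genes (27.8%) and 5 of 26 mRpS genes (19.2%). In the IDR list, 10 of the 26 RpS genes had it (38.5%) against 16% of all protein-coding genes there. The motif 1 core GTCACACT was found at 3 RpS genes (7.89%) against 7.59% of protein-coding genes, the E-box CAGCTG at 8 (21.1%) against 22.3%, the E-box CACGTG at 2 (5.26%) against 5.3%, the GAGA word GAGAGAG at 1 (2.63%) against 9.08%, and the TATA word TATAAA at 20 (52.6%) against 51.2%. None of these words is contained in another, and a match describes the sequence only.

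Genes of 2 further proteins of the 40S subunit have symbols outside the rule, and both genes had IDR summits at the start site. The gene sta, which encodes the RpSA protein, had a pooled signal of 245 (rank 1192) from a summit 13 bp downstream of a TSS, with ranks of 1118 in replicate 1 and 1351 in replicate 2. Rack1, a scaffold protein of the 40S head, had 280.3 (rank 922) from a summit 2 bp upstream, with ranks of 375 in replicate 1 and 4459 in replicate 2. Both positions lie within the range of the RpS genes.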

How the data were processed

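ChIP-seq peaks from 2 replicates of CG2202-GFP embryos were analysed as deposited, on dm6. The accompanying deposited texts record that a control alignment entered every replicate and pooled list, and that the IDR list was made from those 3 lists. Aligner, caller and IDR threshold: not given in the sources used here. The authors' signal value per peak and the deposited −log10 q-value per peak were used, the signal to rank peaks within a list and the q-value, converted to q, as a threshold of 0.05. Depth is unknown, so no interval was computed.

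Summits (peak start plus offset) were assigned to every annotated TSS within 500 bp, and the strongest per gene was kept. Genes came from Ensembl release 115 without transposable elements and pseudogenes (17896 genes, 23722 TSSs). Arm names matched and no peak ended beyond the Release 6 arm. Repeated 36-base words were counted within 500 bp of TSSs, and paralogue proteins were translated from annotated coding exons and aligned globally (BLOSUM62). The members, lists and rules were chosen with earlier results of these data known. Named genes were the 10 of highest IDR signal, all unlisted members, all paralogues, all with shared summits and the 5 that differed most between replicates; a few of these genes and a neighbour are not reported here by name, but counts include them. With 1 group, no test of a condition was possible and none was made. Alternatives were other TSS windows, 1000 IDR peaks, each replicate alone, q below 0.05, the most upstream TSS, peak intervals, and, added after the data were seen, other gene backgrounds and leaving out repeated promoters. The code, in Python 3.11.15 with numpy 2.4.6, pandas 2.3.3, scipy 1.17.1, matplotlib 3.10.9 and Biopython 1.88, was tested on simulated data.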

Additional observations from a re-analysis of the deposited data

How the results depend on the processing

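The count of 26 RpS genes with an IDR summit stayed within 1.5 times of itself under all alternatives but 1: it was 7 with only the 1000 IDR peaks of highest signal, where the share over all genes was 3.79%. It was 26 with a 250 bp window, 28 with 1000 bp, which added RpS19b and RpS28a, 26 with the most upstream TSS, 25 with peak intervals over the TSS, 33 with pooled q below 0.05, and 25 without the genes with repeated promoter words. With 1 replicate left out it ran from 21 to 26. The share over all genes was 9.51% with 250 bp, 14.9% with 1000 bp and 10.75% with the most upstream TSS. It was 34.9% with pooled q below 0.05 and 6.82% with peak intervals, and it ran from 10.9% to 13.4% with 1 replicate left out. Over protein-coding genes the share was 14.1% and over genes with a pooled summit 24.9%, both backgrounds chosen after seeing the data. No share was computed for the rule on repeated promoter words. The count of shared summits, 13, followed the rule for sharing: 6 with 250 bp, 24 with 1000 bp, 4 with the 1000 highest IDR peaks, 3 with peak intervals, and 9 to 13 with 1 replicate left out. The median position was 40.5 bp with the most upstream TSS and ran from -3 to 5 bp with 1 replicate left out. The median rank percentile in the pooled list, 93.4 over the 36 RpS genes with a pooled summit, ran from 91.0 to 94.8 with 1 replicate left out. The initiator word was found at 12 RpS genes when only the most upstream TSS was searched. No paired analysis was possible because the 2 samples form 1 group. Depth being unknown, a gene with no summit may have a peak below the lists' floors.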
